A study of Mus musculus with 6 samples.

Results

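The transcripts of 6 co-signalling receptors (Cd28, Icos, Ctla4, Pdcd1, Btla and Lag3) were examined across the 3 Ikzf3 genotypes. These receptors belong to the CD28 family or are other inhibitory receptors, and Icos was the only one that passed the test. Icos RNA was lower in Ikzf3N159S/N159S T cells than in Ikzf3+/+ T cells by 0.71 on the log2 scale, with Ikzf3+/N159S T cells in between. The members were the rows of the count files whose symbol was one of these names, which gave 6 of 25239 genes. Splenic TCRβ+CD4+CD44-CD127+ T cells were purified from Ikzf3+/+, Ikzf3+/N159S and Ikzf3N159S/N159S mice, and 2 libraries of poly(A) RNA were sequenced for each genotype. The mice had a C57BL/6 background and were untreated. Their age at RNA extraction is not given in the sources used here. The N159S allele was introduced by CRISPR-Cas9 into Ikzf3, which encodes the zinc finger transcription factor Aiolos, and corresponds to a human AIOLOS variant. All cells of the mouse carried the allele, so other cell types of the spleen carried it too. Every group shared the CD44- and CD127+ gates, which select cells that correspond to naive T cells.

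A naive T cell needs a second signal beside its antigen receptor. CD28, bound by CD80 and CD86, gives that signal on resting cells, and ICOS, bound by ICOS ligand, is a relative of CD28 that is known for its part in T cell help to B cells. CTLA-4 competes with CD28 for CD80 and CD86, PD-1 (Pdcd1) binds PD-L1 and PD-L2, BTLA binds HVEM, and LAG-3 binds MHC class II. The last 4 dampen activation and are called checkpoint receptors. CTLA-4, PD-1 and LAG-3 are mainly known from activated or regulatory T cells, whereas CD28 and BTLA are present on resting ones.

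The coding sequences around known signalling motifs of the receptor tails are given as background and do not bear on the RNA levels. The motif looked for in each gene was set beforehand, so its presence is not a result. Each line gives coding bases of 1 transcript (GENCODE M21, GRCm38, which is the build mm10 used for the counts), with the codons of the motif in capitals. In Cd28, Icos and Ctla4 the motif is the tyrosine motif known to bind PI3K. In Pdcd1 and Btla it is the switch motif (ITSM), known to recruit SHP phosphatases. No motif was searched for in Lag3, whose tail is not built in this way.
Cd28, chr1:60769669-60769728, plus strand, exon 4 of 4: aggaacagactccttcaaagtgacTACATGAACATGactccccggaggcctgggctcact
Icos, chr1:60995536-60995595, plus strand, exon 4 of 5: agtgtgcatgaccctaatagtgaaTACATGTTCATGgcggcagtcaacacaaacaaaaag
Ctla4, chr1:60914622-60914681, plus strand, exon 4 of 4: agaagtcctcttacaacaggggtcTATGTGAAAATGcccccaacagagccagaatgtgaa
Pdcd1, chr1:94039395-94039460, minus strand, exon 5 of 5: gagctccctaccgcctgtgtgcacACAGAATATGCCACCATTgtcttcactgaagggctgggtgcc
Btla, chr16:45250541-45250594, plus strand, exon 6 of 6: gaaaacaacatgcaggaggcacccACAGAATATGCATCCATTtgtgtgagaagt

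The libraries held 11696461 to 17317260 reads counted on genes, and 14803 to 18147 genes had at least 1 read. Of 25239 genes, 12117 passed the filter on low counts, the 6 receptors among them. Values below are normalized counts (reads scaled by TMM to a common library size). Differences are log2 differences from edgeR's quasi-likelihood test, with a standard error (SE) and a Benjamini-Hochberg adjusted p (FDR) over all tested genes. For a single gene with 2 libraries on each side, the smallest two-sided p of an exact permutation test is 0.333, so the FDR values depend on the spread that edgeR pools over genes. The counts of Ikzf3 itself, 2331 and 2292 in the Ikzf3+/+ pair, 2489 and 2258 in the Ikzf3+/N159S pair and 2925 and 3006 in the Ikzf3N159S/N159S pair, do not show a point mutation and check no label. The 2 Ikzf3+/N159S libraries held Xist, a transcript of female cells, at 737 and 846 CPM (counts scaled to the library total), against 0.769 to 1.96 CPM in the other 4. All CPM values after these were scaled to the reads on tested genes and by the TMM factor instead. In every comparison with Ikzf3+/N159S the genotype and the sex-linked transcripts cannot be told apart. In these bulk samples fewer cells of a type and less RNA per cell cannot be told apart.

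Of the 6 receptors, 1 was lower and 0 were higher in Ikzf3N159S/N159S than in Ikzf3+/+ T cells, where 2.1% of all tested genes were called lower, 3.1% higher and 5.21% in either direction. Icos was also the only receptor with an unadjusted p under 0.05 in that comparison (18.4% of tested genes) and the only one whose libraries did not overlap (48.3% of tested genes). The median log2 difference of the 6 was -0.01, and that of all tested genes was 0.00. Between Ikzf3+/N159S and Ikzf3+/+ T cells 0 of 6 were called (1.75% of tested genes), and 2 of 6 had an unadjusted p under 0.05 (16.3% of tested genes). DESeq2 also called 0. Between Ikzf3N159S/N159S and Ikzf3+/N159S T cells 1 of 6 was called and lower, against 1.49% of tested genes in either direction and 0.933% lower, and 2 of 6 (Icos and Ctla4) had an unadjusted p under 0.05, against 11.7%. The slope on the number of N159S alleles was called for 1 of 6, against 3.49% in either direction and 1.35% falling. Whether Ikzf3+/N159S lay off the midpoint between Ikzf3+/+ and Ikzf3N159S/N159S was also tested, and the difference was called for 0 of 6, against 0.933%, with an unadjusted p under 0.05 for 2 of 6, against 11.2%. DESeq2 called 0 there as well.

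**Figure D1:**
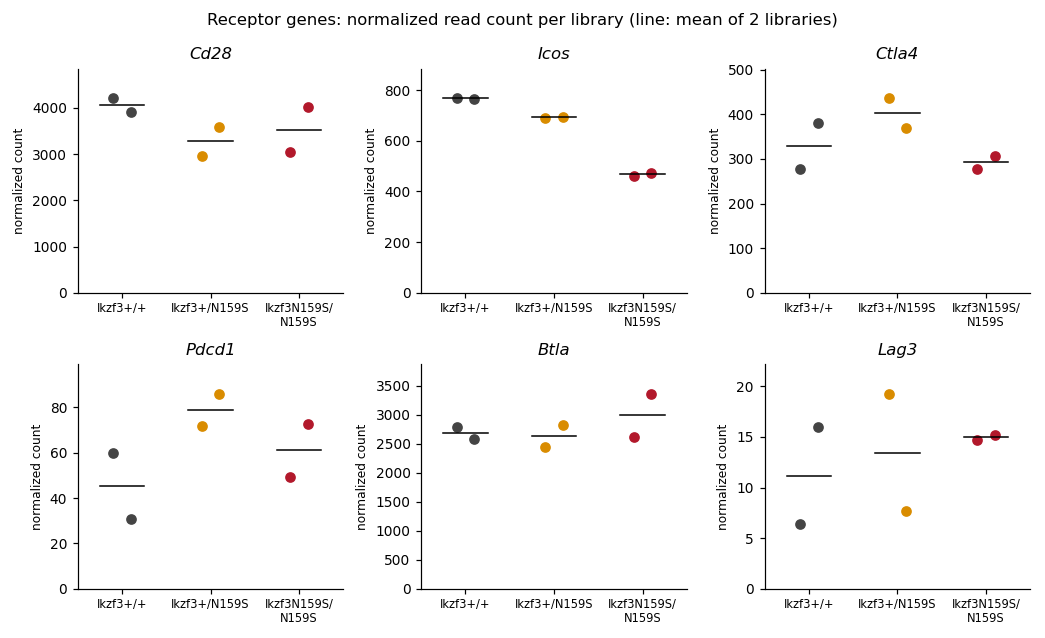
Normalized read count (y axis, linear, from 0) of each receptor gene in each of the 6 libraries, by genotype (x axis), with a line at the mean of the 2 libraries of a genotype. Icos falls in steps from 768 to 693 to 468 with no overlap between genotypes, whereas the libraries of at least 2 genotypes overlap for each of the other 5 genes.

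Icos lies on chromosome 1 from 60977927 to 61000320 on the plus strand. It had 769.8 and 766 normalized counts in the Ikzf3+/+ libraries, 692 and 694 in the Ikzf3+/N159S libraries, and 463 and 474 in the Ikzf3N159S/N159S libraries. The reads behind these values were 604 and 767, 790 and 726, and 536 and 436. The 6 libraries stood in the order of the allele number with no overlap between genotypes, as they did in either direction for 7.75% of tested genes. Means were 768 ± 2.86 (SD, n = 2), 693 ± 1.37 (SD, n = 2) and 468 ± 7.89 (SD, n = 2), so Icos fell to 0.610 of the Ikzf3+/+ level. These SDs are smaller than the counting error of such read numbers, so they do not measure the spread between mice. The narrow range of the Icos difference when 1 library is left out follows from the same closeness of the pairs.

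The log2 difference of Icos between Ikzf3N159S/N159S and Ikzf3+/+ was -0.71 (SE 0.10, 95% confidence interval -0.94 to -0.48, FDR = 0.00268). Against Ikzf3+/N159S it was -0.57 (SE 0.10, FDR = 0.0228). Between Ikzf3+/N159S and Ikzf3+/+ it was -0.15 (SE 0.10, interval -0.37 to 0.08, FDR = 0.516), which did not pass the test. The slope per N159S allele was -0.35 (SE 0.06, FDR = 0.0133). Ikzf3+/N159S lay 0.21 above the midpoint on the log2 scale (SE 0.09, unadjusted p = 0.038, FDR = 0.407), which did not pass after adjustment.

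The call of Icos against Ikzf3+/+ did not depend on any single library. When any 1 library was omitted its log2 difference stayed between -0.72 and -0.70 and the FDR at most 0.025. The call against Ikzf3+/N159S was lost without Ikzf3+/N159S replicate 1 (FDR = 0.0806) or 2 (FDR = 0.0807) and without Ikzf3N159S/N159S replicate 1 (FDR = 0.136) or 2 (FDR = 0.143). The slope was lost without Ikzf3+/+ replicate 1 (FDR = 0.0512) and without Ikzf3N159S/N159S replicate 1 (FDR = 0.104) or 2 (FDR = 0.0896). In such fits the remaining library of a genotype is assumed to vary like the other genotypes.

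Cd28, on chromosome 1 from 60746358 to 60773359 on the plus strand, was the most abundant of the receptors per length in Ikzf3+/+ T cells. Its normalized counts were 4219 and 3906 in Ikzf3+/+, 2968 and 3584 in the Ikzf3+/N159S pair, and 3048 and 4017 in Ikzf3N159S/N159S libraries. Both Ikzf3+/N159S libraries were below both Ikzf3+/+ libraries, a separation that 47.1% of tested genes showed in either direction, while 1 of the Ikzf3N159S/N159S libraries lay within the Ikzf3+/+ range. The log2 difference was -0.31 (SE 0.14, unadjusted p = 0.0444, FDR = 0.292) in Ikzf3+/N159S and -0.20 (SE 0.14, interval -0.50 to 0.10, FDR = 0.493) in Ikzf3N159S/N159S T cells. Neither passed the test, and the interval still allows a fall to 0.706 of the Ikzf3+/+ level in the latter. A fit with an added term for the library with more or fewer genes detected in each genotype, chosen with earlier results known, called Cd28 lower in Ikzf3+/N159S T cells (FDR = 0.0087).

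Among the checkpoint receptors none was called in any comparison. Ctla4, on chromosome 1 from 60909025 to 60915832 on the plus strand, had 278 and 380.4 normalized counts in Ikzf3+/+, 437 and 369.9 in the Ikzf3+/N159S pair, and 278 and 308 in Ikzf3N159S/N159S libraries. Both Ikzf3N159S/N159S libraries were below both Ikzf3+/N159S libraries (41.1% of tested genes did not overlap here), while the Ikzf3+/+ pair spanned most of the range. The log2 difference was -0.46 (SE 0.16, unadjusted p = 0.0163, FDR = 0.265) between Ikzf3N159S/N159S and Ikzf3+/N159S. It was -0.18 (SE 0.17, FDR = 0.647) between Ikzf3N159S/N159S and Ikzf3+/+, and 0.29 (SE 0.16, FDR = 0.426) between Ikzf3+/N159S and Ikzf3+/+. Ikzf3+/N159S lay 0.38 above the midpoint (SE 0.14, unadjusted p = 0.021, FDR = 0.348). The same added term gave an FDR of 0.0388 for the difference between Ikzf3N159S/N159S and Ikzf3+/N159S.

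Pdcd1, on chromosome 1 from 94038305 to 94052553 on the minus strand, rested on few reads, 47 and 31 in Ikzf3+/+, 82 and 90 in the Ikzf3+/N159S pair, and 57 and 67 in Ikzf3N159S/N159S libraries. Its normalized counts were 59.9 and 31.0, 71.8 and 86.0, and 49.2 and 72.8. Both Ikzf3+/N159S libraries were above both Ikzf3+/+ libraries, and the Ikzf3N159S/N159S libraries overlapped with both other genotypes. The log2 difference was 0.82 (SE 0.35, interval 0.06 to 1.58, unadjusted p = 0.037, FDR = 0.275) in Ikzf3+/N159S and 0.44 (SE 0.35, interval -0.34 to 1.22, FDR = 0.578) in Ikzf3N159S/N159S T cells, each against Ikzf3+/+. Neither passed the test.

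Btla, on chromosome 16 from 45224315 to 45252892 on the plus strand, had 2781 and 2583 normalized counts in Ikzf3+/+, 2449 and 2832 in the Ikzf3+/N159S pair, and 2615 and 3364 in Ikzf3N159S/N159S libraries. The 3 genotypes overlapped. The log2 difference from Ikzf3+/+ was 0.16 (SE 0.13, interval -0.12 to 0.44, FDR = 0.585) in Ikzf3N159S/N159S and -0.02 (SE 0.13, interval -0.30 to 0.26, FDR = 0.957) in Ikzf3+/N159S T cells. For this abundant gene the intervals leave room for a rise of up to 1.35-fold in Ikzf3N159S/N159S and a fall to 0.811 of the Ikzf3+/+ level in Ikzf3+/N159S T cells.

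Lag3, on chromosome 6 from 124904361 to 124911705 on the minus strand, had 5 and 16 reads in Ikzf3+/+, 22 and 8 in the Ikzf3+/N159S pair, and 17 and 14 in Ikzf3N159S/N159S libraries. The libraries of each pair of genotypes overlapped. Its log2 difference between Ikzf3N159S/N159S and Ikzf3+/+ was 0.37 (SE 0.63, interval -1.02 to 1.77, FDR = 0.825), an interval that runs from 0.493 to 3.40 of the Ikzf3+/+ level, so with so few reads no direction can be given.

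**Figure D2:**
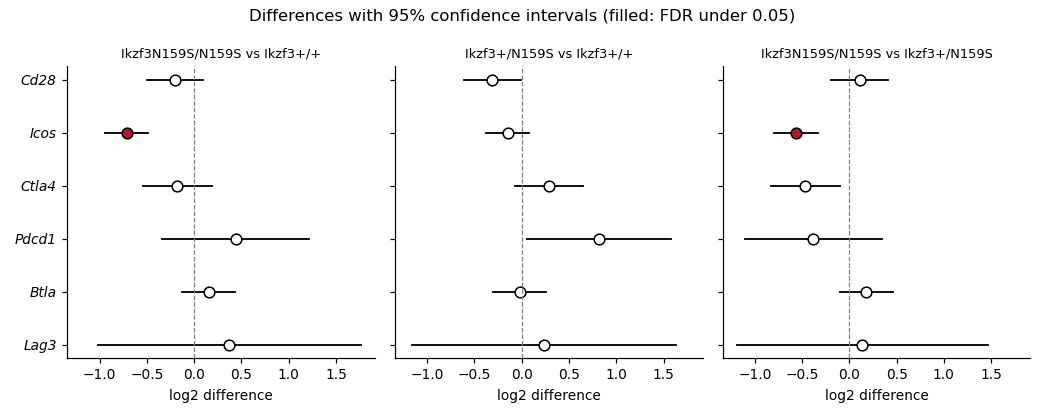
Log2 difference (x axis) of each receptor gene (y axis) for the 3 pairs of genotypes, with its 95% confidence interval as a line, filled where the FDR was under 0.05. Icos is the only filled point, at -0.71 and -0.57 in the panels of Ikzf3N159S/N159S, and the widest intervals are those of Pdcd1 (-0.34 to 1.22) and Lag3 (-1.02 to 1.77) in the panel of Ikzf3N159S/N159S against Ikzf3+/+.

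The order of the receptors was then compared per length, as RPKM (reads scaled to exon length and library size, from the counts and the GENCODE exon lengths). In Ikzf3+/+ T cells Cd28 stood at 63.0 ± 3.43 (SD, n = 2), Btla at 55.5 ± 2.90, Icos at 15.1 ± 0.0562, Ctla4 at 11.5 ± 2.53, Pdcd1 at 1.59 ± 0.715 and Lag3 at 0.376 ± 0.229. Of the 11883 tested genes with an exon length, 91.9% were below Cd28 and 90.5% below Btla, against 21.3% below Pdcd1 and 8.10% below Lag3. Cd28 and Btla libraries did not overlap in Ikzf3+/+ T cells, and neither did Icos and Ctla4. In Ikzf3+/N159S T cells Btla (54.7 ± 5.61) and Cd28 (50.8 ± 6.75) overlapped, and so did Ctla4 (14.1 ± 1.66) and Icos (13.6 ± 0.0268). In Ikzf3N159S/N159S T cells Icos, at 9.09 and 9.31 RPKM, was close to Ctla4, at 9.69 and 10.7 RPKM, and their order was not tested. That order depends on the exon lengths used, 3430 bases for Icos and 1933 for Ctla4. In reads Icos stayed above Ctla4, with 1.66 and 1.54 Icos reads per Ctla4 read in Ikzf3N159S/N159S against 2.77 and 2.01 in Ikzf3+/+ libraries. The step from these 4 genes to Pdcd1 and Lag3 was beyond the spread in every genotype.

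Ratios of reads within a library do not depend on the scaling between libraries, and those below were chosen after their values were seen, so they are a description. Icos had 0.182 and 0.196 reads per Cd28 read in Ikzf3+/+, 0.233 and 0.194 in the Ikzf3+/N159S pair, and 0.152 and 0.118 in Ikzf3N159S/N159S libraries. Per Btla read it had 0.277 and 0.296, 0.283 and 0.245, and 0.177 and 0.141. By either partner the Ikzf3N159S/N159S libraries were lowest, and by either partner the Ikzf3+/N159S libraries were not between the other genotypes without overlap. Btla itself had 0.659 and 0.661 reads per Cd28 read in Ikzf3+/+, 0.825 and 0.790 in the Ikzf3+/N159S pair, and 0.858 and 0.837 in Ikzf3N159S/N159S libraries. The ratio of Btla to Cd28 was thus higher in both mutant genotypes without overlap. Of 12058 tested genes with reads in every library, 41.7% had reads per Cd28 read that did not overlap between Ikzf3N159S/N159S and Ikzf3+/+ libraries, in either direction. No such share was computed for both mutant genotypes together.

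The binding partners of the receptors were taken next, from a list of 12 genes of which 9 were tested. In Ikzf3N159S/N159S T cells 1 was called higher (Icosl) and 1 lower (Cd86), 11.1% each, against 3.1% and 2.1% of tested genes. In Ikzf3+/N159S T cells 1 was called higher (Icosl), 11.1% against 1.16% of tested genes. Icosl, which encodes the ligand of ICOS and is known from B cells and other antigen-presenting cells, had 134 and 162 normalized counts in Ikzf3+/+, 374 and 446 in the Ikzf3+/N159S pair, and 543 and 411 in Ikzf3N159S/N159S libraries. All 4 mutant libraries were above both Ikzf3+/+ libraries. The log2 difference was 1.69 (SE 0.18, FDR = 0.000314) in Ikzf3N159S/N159S and 1.46 (SE 0.18, FDR = 0.00287) in Ikzf3+/N159S T cells. It was 0.22 (FDR = 0.66) between the mutant genotypes. Icosl RNA therefore rose where that of its receptor fell, though Icos passed the test in Ikzf3N159S/N159S T cells alone.

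Cd86, which encodes a ligand shared by CD28 and CTLA-4, had 65.0 and 70.9 normalized counts in Ikzf3+/+, 33.3 and 31.5 in the Ikzf3+/N159S pair, and 15.5 and 16.3 in Ikzf3N159S/N159S libraries. These too stood in allele order without overlap. The log2 difference was -2.09 (SE 0.35, FDR = 0.00566) in Ikzf3N159S/N159S and -1.07 (SE 0.32, FDR = 0.13, and 0.0248 by the likelihood ratio test) in Ikzf3+/N159S T cells, and without Ikzf3+/+ replicate 2 the former had an FDR of 0.0554. Cd80, the other ligand of this pair, had 6 to 33 reads in a library and a log2 difference of -1.16 (SE 0.61, FDR = 0.355). The PD-1 ligands Cd274 (0.23, FDR = 0.329) and Pdcd1lg2 (0.51, FDR = 0.577) and the BTLA ligand Tnfrsf14 (-0.05, FDR = 0.88) did not pass the test in Ikzf3N159S/N159S T cells. Fgl1, a ligand of LAG-3, had 0 to 4 reads and was not tested.

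**Figure D3:**
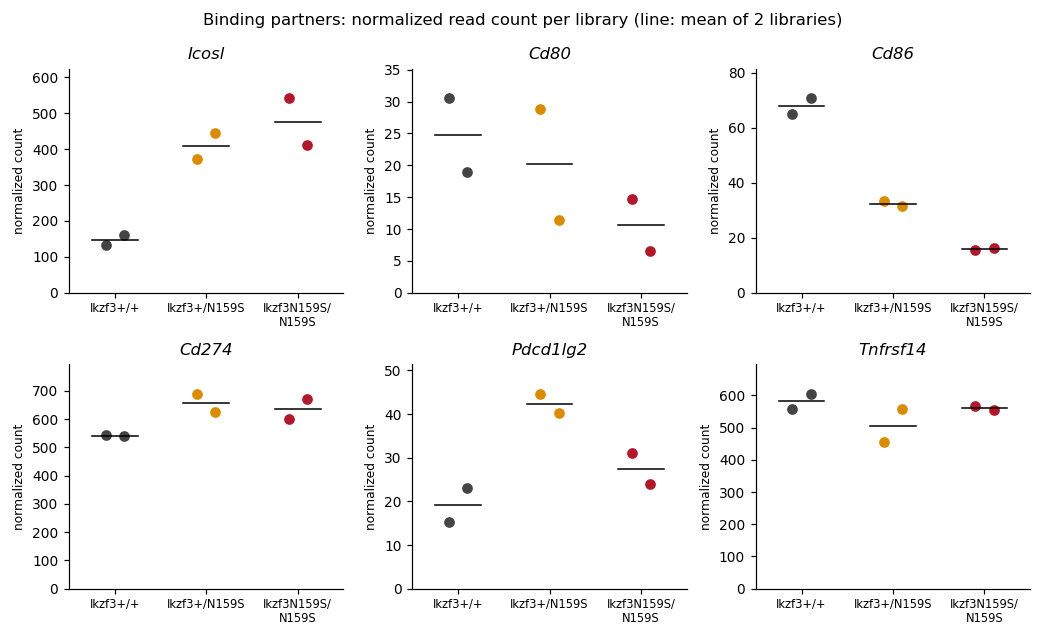
Normalized read count (y axis, linear, from 0) of 6 genes for binding partners of the receptors in each of the 6 libraries, by genotype (x axis), with a line at the mean of the 2 libraries. Icosl rises from 134 and 162 to between 374 and 543 in the mutant libraries, Cd86 falls in steps to 15.5 and 16.3, and the other 4 genes were not called.

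Other cell types carry these ligands, so markers were set beside them. The 12 B cell markers in the files summed to 201 and 309.9 CPM in Ikzf3+/+, 542 and 879.8 in the Ikzf3+/N159S pair, and 206 and 135 in Ikzf3N159S/N159S libraries, in cells sorted as TCRβ+CD4+. All 12 were called lower in Ikzf3N159S/N159S than in Ikzf3+/N159S, against 0.933% of tested genes. Compared with Ikzf3+/+, 6 were called higher in Ikzf3+/N159S (1.16% of tested genes) and 3 lower in Ikzf3N159S/N159S (2.1% of tested genes). None of the 12 was at 0 in any library. The B cell sum was thus highest in Ikzf3+/N159S libraries, whereas Icosl was as high in Ikzf3N159S/N159S libraries, where the B cell sum was near or below that of Ikzf3+/+. Cd86 was at its lowest where the B cell sum was, but was also lower in both Ikzf3+/N159S libraries, where that sum was highest. The 12 myeloid and dendritic cell markers summed to 75.4 and 73.3 CPM in Ikzf3+/+, 75.3 and 57.9 in the Ikzf3+/N159S pair, and 74.7 and 82.0 in Ikzf3N159S/N159S libraries. Of the 9 tested, 0 were called against Ikzf3+/+ by edgeR in either mutant genotype. Against Ikzf3+/+, 7 were positive in Ikzf3N159S/N159S (median log2 difference 0.67) and 4 in Ikzf3+/N159S T cells (median -0.25). In Ikzf3N159S/N159S 1 of 9 was called higher than in Ikzf3+/N159S (11.1%, against 0.553% of tested genes). Siglech had 0 to 2 reads. The part of these cells in the result was not tested.

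Among the T cell lists, the 11 regulatory T cell markers summed to 226 and 226 CPM in Ikzf3+/+, 304 and 288 in the Ikzf3+/N159S pair, and 209 and 192 in Ikzf3N159S/N159S libraries. The CD44- gate is set against effector and memory cells, and the CD127+ gate against most regulatory T cells. Ikzf3+/N159S had 3 of 11 called higher than Ikzf3+/+ (Ikzf2, Itgae and Capg), against 1.16% of tested genes. Capg stayed called whichever library was left out, whereas Itgae was lost without Ikzf3+/+ replicate 1 (FDR = 0.14) or 2 (FDR = 0.152) and without Ikzf3+/N159S replicate 1 (FDR = 0.159), and Ikzf2 without the same 3 libraries (FDR 0.0586 to 0.168). Foxp3, the lineage factor of regulatory T cells, had 102 and 167 normalized counts in Ikzf3+/+, 448 and 248 in the Ikzf3+/N159S pair, and 161 and 84.8 in Ikzf3N159S/N159S libraries. Its log2 difference from Ikzf3+/+ was 1.36 (FDR = 0.069, and 0.00357 by the likelihood ratio test) in Ikzf3+/N159S and -0.12 (FDR = 0.91) in Ikzf3N159S/N159S T cells. In Ikzf3+/N159S T cells Foxp3 passed in 4 of 9 alternatives other than leaving out a library. Beside the likelihood ratio test these were no filter on low counts (FDR = 1.22e-11), only the 2 genotypes compared (FDR = 0.032) and the added term (FDR = 3.95e-06). The 11 effector and memory markers summed to 283 and 314, 385 and 360.0, and 365 and 351 CPM, a sum carried by a few abundant genes such as Ahnak, Id2 and Itgb1. Of the 10 tested, 7 had a negative difference in Ikzf3N159S/N159S against Ikzf3+/+ T cells (median log2 difference -0.76). Of these 10, 1 was called higher (Ahnak) and 1 lower (Il2rb, a chain of the IL-2 and IL-15 receptors, by a log2 difference of -1.52). Each was a share of 10%, against 3.1% of tested genes called higher and 2.1% lower. Ahnak was at 0.63 (FDR = 0.0498) and was lost without Ikzf3+/+ replicate 1 (FDR = 0.307) or Ikzf3N159S/N159S replicate 1 (FDR = 0.274) and with DESeq2's size factors (FDR = 0.0511). In Ikzf3+/N159S against Ikzf3+/+ T cells 9 of 10 were positive (median log2 difference 0.42). Of these 10, 1 was called higher (Cxcr3), 10% against 1.16% of tested genes. That call was lost without Ikzf3+/+ replicate 1 or 2 or Ikzf3+/N159S replicate 1. In Ikzf3N159S/N159S against Ikzf3+/N159S T cells 4 of 10 were called lower (Il2rb, Cxcr3, Ccl5 and S100a4, with a list median of -1.16), against 0.933% of tested genes. Il2rb stayed called whichever library was left out. Cxcr3 was lost without Ikzf3+/N159S replicate 1 or either Ikzf3N159S/N159S library (FDR 0.0583 to 0.0685), S100a4 without the same 3 (FDR 0.105 to 0.229), and Ccl5 without any 1 library of the genotypes compared (FDR 0.0972 to 0.208).

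Ctla4 and Pdcd1, which regulatory, effector and memory T cells are known to carry, had their highest means in Ikzf3+/N159S libraries as well, and whether these cells had a part in that was not tested.

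In Ikzf3N159S/N159S T cells all 11 regulatory markers were negative against Ikzf3+/N159S (median log2 difference -0.72). Of these, 3 were called lower, 27.3% against 0.933% of tested genes. Ikzf3+/N159S was called above the midpoint for 6 of 11, 54.5% against 0.743% of tested genes. Against Ikzf3+/+ the regulatory markers of Ikzf3N159S/N159S T cells were mixed. Capg was higher (log2 difference 0.60, FDR = 0.00897), and Il2ra (-0.89, FDR = 0.046) and Izumo1r (-0.87, FDR = 0.00418) were lower. Capg was lost without Ikzf3+/+ replicate 2 (FDR = 0.0893) or Ikzf3N159S/N159S replicate 1 (FDR = 0.0653), and Il2ra without Ikzf3+/+ replicate 1 (FDR = 0.124) or 2 (FDR = 0.211) or Ikzf3N159S/N159S replicate 2 (FDR = 0.259). Cd8b1 fell by 2.65 on the log2 scale (FDR = 0.000379), with 298 and 196 normalized counts in Ikzf3+/+, 184 and 129.98 in the Ikzf3+/N159S pair, and 46.6 and 30.4 in Ikzf3N159S/N159S libraries. Of the 9 follicular helper markers, for which Icos is otherwise known, 5 were tested and 0 were called against Ikzf3+/+ in either mutant genotype. Between Ikzf3N159S/N159S and Ikzf3+/N159S, where Icos was also called lower, all 5 were negative and 2 of 5 were called lower (Cxcr5 and Pou2af1), against 0.933% of tested genes. Cxcr5, a chemokine receptor that B cells carry as well, had 37 and 55, 130 and 99, and 38 and 8 reads. Its log2 difference of -2.27 (FDR = 0.0237) was lost without Ikzf3+/N159S replicate 1 (FDR = 0.0813) or Ikzf3N159S/N159S replicate 2 (FDR = 0.0878). Pou2af1, a coactivator known from B cells, was at -0.93 and was lost without Ikzf3+/N159S replicate 2 or either Ikzf3N159S/N159S library (FDR 0.0774 to 0.16). The part of other cells in the level of Icos was not tested.

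The 10 CD8 and NK cell markers summed to 68.9 and 71.9 CPM in Ikzf3+/+, 61.2 and 56.7 in the Ikzf3+/N159S pair, and 45.4 and 42.0 in Ikzf3N159S/N159S libraries. Of the 7 tested, 6 were negative in Ikzf3N159S/N159S against Ikzf3+/+ T cells (median log2 difference -1.21). Of these 7, 1 was called lower (Cd8b1), 14.3% against 2.1% of tested genes. Among the 13 genes of the CD4 T cell identity list 3 were called lower and 0 higher in Ikzf3N159S/N159S T cells (23.1%, against 2.1% of tested genes), with Lef1 and Cd5 among them and 10 of 13 negative (median -0.11). In Ikzf3+/N159S T cells 2 of 13 were called lower (15.4%, against 0.586% of tested genes), 1 of them Il7r, which encodes the CD127 of the sort (log2 difference -0.49), a call lost without any 1 library of the genotypes compared (FDR 0.0947 to 0.157) and in a fit of these genotypes alone (FDR = 0.0547). The defining genes Cd3e, at 4209 to 6368, and Cd4, at 10109 to 14755 normalized counts, were not called. Of 6 erythroid markers, the 4 globin genes were at 0 in every library. The list summed to 0.687 and 3.90 CPM in Ikzf3+/+, 6.49 and 3.67 in the Ikzf3+/N159S pair, and 1.40 and 2.12 in Ikzf3N159S/N159S libraries. Of its genes 2 were tested and 0 called, with a median log2 difference of 1.41 in Ikzf3+/N159S and 0.00 in Ikzf3N159S/N159S against Ikzf3+/+ T cells.

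**Figure D4:**
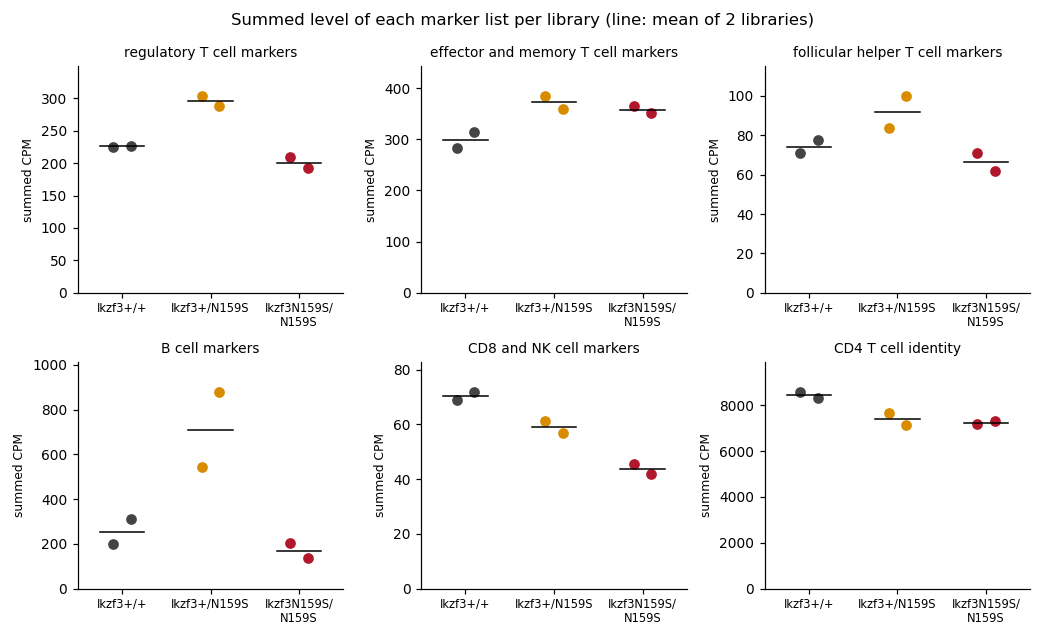
Summed CPM (y axis, linear, from 0) of 6 marker lists in each of the 6 libraries, by genotype (x axis), with a line at the mean of the 2 libraries. The regulatory T cell and B cell sums peak in Ikzf3+/N159S libraries (304 and 288 CPM, and 542 and 879.8 CPM), whereas the CD8 and NK cell sum (68.9 and 71.9, 61.2 and 56.7, and 45.4 and 42.0 CPM) stood in allele order without overlap, as Icos did.

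Of 20 other co-signalling receptors, 17 were tested. In Ikzf3N159S/N159S T cells 1 was called higher (Lair1) and 1 lower (Cd6) than in Ikzf3+/+, and 15 did not pass. Each was a share of 5.88%, against 3.1% of tested genes called higher and 2.1% lower. In Ikzf3+/N159S T cells 1 was called higher (Klrg1), 5.88% against 1.16% of tested genes. Cd6, which binds CD166 and like its relative CD5 tunes T cell receptor signalling, had 6894 and 7394 normalized counts in Ikzf3+/+, 6283 and 5199 in the Ikzf3+/N159S pair, and 4172 and 3766 in Ikzf3N159S/N159S libraries. It was in allele order without overlap, as Icos was, with a log2 difference of -0.85 (SE 0.11, FDR = 0.0015). Cd5 itself, from the list of T cell identity genes, had a log2 difference of -0.86 (FDR = 0.00123). Lair1, an inhibitory collagen receptor, had a log2 difference of 0.75 (FDR = 0.0257), lost when any Ikzf3+/+ or Ikzf3N159S/N159S library was left out (FDR 0.0661 to 0.164).

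The TNF receptor family members of this list, Tnfrsf4 (OX40), Tnfrsf9 (4-1BB), Tnfrsf18 (GITR) and Cd27, had log2 differences of 0.40, 0.22, 0.29 and 0.13 in Ikzf3N159S/N159S and of 0.47, 0.76, 0.51 and 0.14 in Ikzf3+/N159S T cells, and none passed. In Ikzf3+/N159S T cells Tnfrsf18 did pass with no filter on low counts (FDR = 0.0105), by the likelihood ratio test (FDR = 0.00892) and with the added term (FDR = 0.00402). Tnfrsf9 passed with no filter (FDR = 0.032) and with the added term (FDR = 0.024), and Tnfrsf4 with the added term (FDR = 0.0389). Klrg1, an inhibitory receptor of terminally differentiated cells, had 6 and 5 reads in Ikzf3+/+, 38 and 34 in the Ikzf3+/N159S pair, and 5 and 4 in Ikzf3N159S/N159S libraries. It was called higher in Ikzf3+/N159S T cells (log2 difference 2.38, FDR = 0.0491), a call lost without any 1 of the 6 libraries (FDR 0.0717 to 0.389), by DESeq2 (FDR = 0.0728) and without X and Y genes (FDR = 0.0505).

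Of 23 genes for signalling and traffic of these receptors, 1 was called higher and 1 lower in Ikzf3N159S/N159S T cells, shares of 4.35% each, where 3.1% of all tested genes were called higher and 2.1% lower. Trat1, an adaptor of the T cell receptor that is also known to hold CTLA-4 at the cell surface, had 2869 and 3357 normalized counts in Ikzf3+/+, 2272 and 2040 in the Ikzf3+/N159S pair, and 2060.4 and 1949 in Ikzf3N159S/N159S libraries. Both mutant genotypes lay below Ikzf3+/+, by a log2 difference of -0.64 (FDR = 0.00609) in Ikzf3N159S/N159S and -0.53 (FDR = 0.0335) in Ikzf3+/N159S T cells. The former was lost without Ikzf3+/+ replicate 2 (FDR = 0.0736) or Ikzf3N159S/N159S replicate 2 (FDR = 0.0606). The latter was lost without Ikzf3+/+ replicate 2 (FDR = 0.28) and without Ikzf3+/N159S replicate 1 (FDR = 0.0547) or 2 (FDR = 0.159). Akt1, a kinase that acts after PI3K, had a log2 difference of 0.38 in Ikzf3N159S/N159S T cells (FDR = 0.045), and leaving out any library of the genotypes compared raised that FDR to between 0.101 and 0.27, and leaving out Ikzf3+/N159S replicate 1 to 0.0503. The PI3K subunits Pik3r1 (-0.07), Pik3ca (-0.01) and Pik3cd (-0.14) and the phosphatases Ptpn6 (0.19) and Ptpn11 (-0.02) did not pass the test.

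Of 25 transcription factors, Irf4, Nr4a3 and Lef1 were called lower and 0 higher in Ikzf3N159S/N159S T cells. The share called lower was 12%, where 2.1% of all tested genes were called lower and 3.1% higher. In Ikzf3+/N159S T cells 2 were called higher and 1 lower (8% and 4%, against 1.16% and 0.586% of tested genes). Irf4, which is induced by T cell receptor signals, had 246 and 304 normalized counts in Ikzf3+/+, 127 and 179.7 in the Ikzf3+/N159S pair, and 51.8 and 50.01 in Ikzf3N159S/N159S libraries. It was in allele order without overlap, with a log2 difference of -2.43 (SE 0.22, FDR = 0.00012). Nr4a3, another factor of that kind, had a log2 difference of -0.85 (FDR = 0.00445), while Nr4a1, its relative, had 0.26 (FDR = 0.264). In Ikzf3+/N159S T cells Maf, a factor known to act on cytokine genes, was higher by 1.37 (FDR = 0.00677) and Ikzf2, which encodes Helios, by 0.83 (FDR = 0.0232), and Nfatc2 was lower by 0.47 on the log2 scale (FDR = 0.0293). The FDR of Maf was 0.052 without Ikzf3+/+ replicate 2. That of Ikzf2 rose to between 0.0586 and 0.168 as given above, and that of Nfatc2 to between 0.0982 and 0.198 without any 1 library of the genotypes compared. Lef1, a factor of naive T cells with a log2 difference of -0.60 (FDR = 0.0412), was lost without Ikzf3+/+ replicate 1 (FDR = 0.253) or 2 (FDR = 0.0527) or Ikzf3N159S/N159S replicate 1 (FDR = 0.262).

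Cd28, Ctla4 and Icos lie next to each other on chromosome 1, with 135666 bases between Cd28 and Ctla4 and 62095 between Ctla4 and Icos. Icos is the last of the cluster, and the next gene after it (9530026F06Rik, 378112 bases on) had no reads. Before Cd28 lie Raph1, at 179579 bases, and Abi2. Raph1, which encodes lamellipodin, a regulator of actin at the cell's leading edge, had 93.0 and 113 normalized counts in Ikzf3+/+, 152 and 107 in the Ikzf3+/N159S pair, and 196 and 229 in Ikzf3N159S/N159S libraries. Both Ikzf3N159S/N159S libraries were the highest, and the log2 difference from Ikzf3+/+ was 1.04 (SE 0.21, FDR = 0.0154). Abi2, another actin regulator, had one of 0.99 (SE 0.24, FDR = 0.036). So within this stretch 2 genes rose, 1 fell and Cd28 and Ctla4 did not pass the test.

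Both rises were lost in some fits that left out 1 library. For Raph1 the FDR was 0.111 without Ikzf3+/+ replicate 1, 0.0525 without Ikzf3+/+ replicate 2 and 0.0967 without Ikzf3N159S/N159S replicate 2. For Abi2 it was 0.0863, 0.22 and 0.222 without the same libraries. Among the neighbours of the other receptors, Ptms, 1976 bases from Lag3, was higher in Ikzf3N159S/N159S T cells (log2 difference 0.61, FDR = 0.0353), lost without Ikzf3+/+ replicate 2 (FDR = 0.259) and without Ikzf3N159S/N159S replicate 1 (FDR = 0.103) or 2 (FDR = 0.137). Cd4, 16140 bases from Lag3 on the other side, did not pass (-0.15, FDR = 0.63). Fam174a near Pdcd1 (0.22) and Atg3 (-0.19), Slc35a5 (-0.21) and Cd200 (-0.04) near Btla did not pass either.

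**Figure D5:**
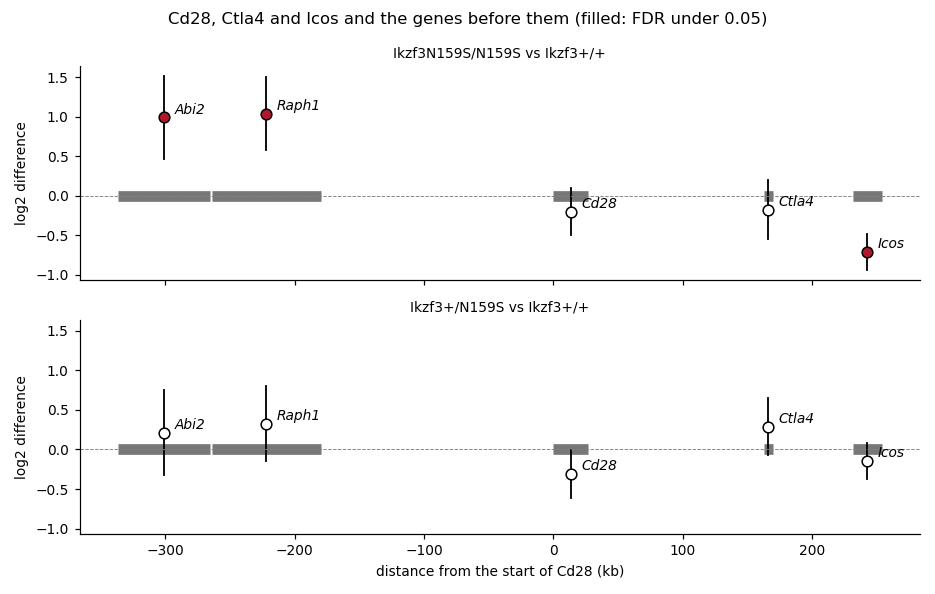
Log2 difference from Ikzf3+/+ (y axis, with 95% confidence intervals) of the 5 genes around Cd28, Ctla4 and Icos against distance from the start of Cd28 (x axis, kb), with each gene's extent as a grey bar, for Ikzf3N159S/N159S (top) and Ikzf3+/N159S (bottom). Filled points had an FDR under 0.05. Abi2 (0.99) and Raph1 (1.04) are above 0 and Icos (-0.71) below it in the top panel, and no gene is filled in the bottom panel.

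The pattern of 5 receptors over the 6 libraries was set beside that of 3064 genes of sufficient level and range, by Pearson's r of log2 CPM over the 6 libraries. Libraries of 1 genotype share it, so these values describe likeness and carry no test. Closest to Icos were Tnf (r = 0.994), Slamf1 (r = 0.994) and Sec22c (r = 0.991), and the log2 difference between Ikzf3N159S/N159S and Ikzf3+/+ was -1.47 for Tnf and -1.82 for Slamf1. Tnf encodes a cytokine of activated T cells, and Slamf1 encodes another co-signalling receptor. Closest to Pdcd1 were Zfp788 (r = 0.985), Ikzf4 (r = 0.982), which encodes the Aiolos relative Eos, and Cetn2 (r = 0.974). Cd28 was closest to Vmn2r84, Fbxo33 and Sema4d, Ctla4 to Trmt5, Pcsk4 and 5730455P16Rik, and Btla to Smim10l1, Mxd1 and Zfp40, with r from 0.954 to 0.981.

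Ikaros family proteins, Aiolos included, are known to bind the core GGGAA, so the 250 bases before the transcript start were searched for it on both strands. The RefSeq promoter table (GRCm38.p6) held Ctla4, Pdcd1 and Btla of the 6 receptors. Pdcd1 held 1 match, on the other strand, 163 bases before the start, and Ctla4 held 0. Btla held 0 in the 228 bases before its first annotated exon. The longer form TGGGAA, which contains the core, had 0 matches in the 3. Of 27025 mouse promoters of 250 bases, 55.9% held the core and 21.5% the longer form. The promoter of Icosl, the ligand gene that rose, held 0 matches in the 184 bases before its first annotated exon. Of the other genes searched, Cd80 held 1 match to the core on the gene strand, which was also a match to the longer form. Raph1 held 0 in the 236 bases before its first annotated exon. The windows of Pdcd1 and Icosl are shown, the first with its match in capitals, which reads as the reverse complement of the core.
Pdcd1, chr1:94052554-94052803, minus strand: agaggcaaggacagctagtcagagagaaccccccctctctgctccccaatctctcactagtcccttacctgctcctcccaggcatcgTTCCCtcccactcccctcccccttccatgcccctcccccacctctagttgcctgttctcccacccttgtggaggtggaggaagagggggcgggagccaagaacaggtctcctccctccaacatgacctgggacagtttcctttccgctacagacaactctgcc
Icosl, chr10:78069118-78069301, plus strand: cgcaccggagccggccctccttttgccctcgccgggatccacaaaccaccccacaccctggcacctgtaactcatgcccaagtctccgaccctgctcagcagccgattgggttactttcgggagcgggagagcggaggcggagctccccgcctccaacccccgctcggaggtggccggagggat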

How the data were processed

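RNA-seq counts of 6 splenic T cell libraries, 2 mice per genotype, were used. The authors trimmed reads with Trimmomatic 0.38.1, mapped them to mm10 with HISAT2 2.2.1, counted them on refGene genes with HTSeq 2.0.2, and deposited raw counts per gene. Reads on genes were 50.7 to 57.7% of those listed, the rest being HTSeq's uncounted classes, which were left out. The kit does not mark strand. In R 4.3.3, edgeR 4.0.16 kept genes by filterByExpr (minimum count 10, total 15), scaled libraries by TMM (factors 0.979 to 1.03) and fitted all 6 libraries in one quasi-likelihood model, with an FDR threshold of 0.05 by the Benjamini-Hochberg method. The fit was tested on simulated data. Named genes were the 6 receptors, up to 5 called genes per list, defining markers, binding partners, 2 neighbours on either side, the 3 genes most alike (mean log2 CPM at least 2, range at least 0.5, prior count 2), Ikzf3 and Xist. The TNF receptor family, PI3K subunits, phosphatases, Nr4a1 and the ratios were added after values were seen. Members and lists were chosen with earlier results of these data known. Alternatives were DESeq2 1.42.0, its size factors, other filters and tests, a replicate block, an FDR under 0.01, only the genotypes compared, no X and Y genes, and each library left out. A few results that the rule for named genes would give are not reported here.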

Additional observations from a re-analysis of the deposited data

How the results depend on the processing

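The fall of Icos in Ikzf3N159S/N159S against Ikzf3+/+ T cells kept its direction and its call in all 10 alternatives (log2 difference -0.71 to -0.70, FDR at most 0.0069) and in all 6 fits with 1 library left out. Of 265 receptor values under alternatives other than leaving out a library, 263 stayed on their side of the threshold and 2 newly passed it. These 2, Cd28 in Ikzf3+/N159S against Ikzf3+/+ and Ctla4 in Ikzf3N159S/N159S against Ikzf3+/N159S, passed with a term for the split of each genotype into the library with more and the one with fewer genes detected, added with earlier results of these data known. It took the receptors called from 0 to 1 and from 1 to 2 in these comparisons. An FDR under 0.01 took the receptors called from 1 to 0 between Ikzf3N159S/N159S and Ikzf3+/N159S and from 1 to 0 for the allele slope, and leaving out libraries gave 0 to 1 in both.

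The replicate numbers did not pair the libraries (correlations of same-numbered deviations -0.167, -0.216 and 0.238). With the replicate block 495 genes were called in place of 631 and Icos stayed called. Single genes not called under the block were Ahnak (FDR = 0.0811), Akt1 (0.0731), Lef1 (0.0513) and Ptms (0.0502) between Ikzf3N159S/N159S and Ikzf3+/+, Il7r (0.0641), Itgae (0.055), Klrg1 (0.0763), Nfatc2 (0.0614) and Trat1 (0.0649) between Ikzf3+/N159S and Ikzf3+/+, and Ccl5 (0.0519) and S100a4 (0.0543) between the mutant genotypes. The 631 genes called between Ikzf3N159S/N159S and Ikzf3+/+ became 265 at an FDR under 0.01, 1047 with no filter on low counts, 1042 by the likelihood ratio test, 1760 with the added term, and 257 to 734 with 1 library left out (257 without Ikzf3+/+ replicate 2, 316 without Ikzf3+/+ replicate 1, 354 and 326 without Ikzf3N159S/N159S replicate 1 and 2). The cause was not tested.

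Signs turned when 1 library was left out only for receptor values that were not called, in 16 of 180 receptor values. Their ranges were, for Btla, -0.13 to 0.0763 (Ikzf3+/N159S against Ikzf3+/+), -0.0257 to 0.33 (Ikzf3N159S/N159S against Ikzf3+/+) and -0.0157 to 0.14 (slope), for Ctla4 -0.38 to 0.0761 (Ikzf3N159S/N159S against Ikzf3+/+) and -0.23 to 0.0038 (slope), for Cd28 -0.0828 to 0.29 (Ikzf3N159S/N159S against Ikzf3+/N159S), and for Pdcd1 -0.0574 to 0.41 (slope). For Lag3 they were -0.58 to 1.08, -0.10 to 1.22 and -0.36 to 0.96 for the 3 pairs of genotypes, -0.0221 to 0.48 for the slope and -0.77 to 0.55 for the midpoint. Other named genes whose sign turned between Ikzf3N159S/N159S and Ikzf3+/+, none of them called, were Cd200 (-0.21 to 0.14), Foxp3 (-0.68 to 0.29), Pik3ca (-0.0834 to 0.0760, and 0.0063 with no filter on low counts), Ptpn11 (-0.10 to 0.0644), Tnfrsf14 (-0.11 to 0.0104) and Tnfrsf9 (-0.0327 to 0.46). Lag3 had few reads, and no direction is given for it.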
